A study of Mus musculus with 6 samples.

Results

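Secreted serpins of the mouse liver were examined through 10 genes chosen by symbol, the alpha-1-antitrypsin copies Serpina1a to Serpina1e and the genes Serpina3k, Serpina6, Serpina10, Serpinc1 and Serpinf2. All 10 symbols were found, on 9 of the 29981 rows of the expression table, because Serpina1a and Serpina1d share a row and Serpina3k shares a row with Serpina3m. Liver RNA was sequenced from C57BL/6 mice with an Albumin-Cre deletion of Abca1, the cellular cholesterol and phospholipid exporter, in hepatocytes (HSKO, n = 3) and from floxed controls labelled wild type (WT, n = 3). Both groups went without food from 9 am to 1 pm before the livers were taken. The labels used here state no age, sex or floxed exon, and Albumin-Cre leaves Abca1 intact in liver cells that never express albumin. No label says which animal a library came from, and p-values here cover the spread among the 6 libraries, which may be technical.

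Serpins inhibit serine proteases by a trap. The protease cleaves an exposed reactive-centre loop of the serpin, and the serpin then changes shape and holds the enzyme in a covalent complex. Hepatocytes secrete most plasma serpins, which restrain neutrophil elastase, thrombin, factor Xa, plasmin and kallikreins, and a few members have lost inhibition and carry hormones instead. Humans have a single alpha-1-antitrypsin gene, whereas mice carry several near-identical copies whose products differ mainly in the reactive-centre loop and therefore in the proteases they bind.

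The copies are shown first, because how far their reads can be told apart sets what their rows measure. The coding sequences of Serpina1a to Serpina1e are each 1239 bases long without the stop codon, and they differ from each other at 86 positions in all. The 90 bases with the most differences are coding bases 1105 to 1194 in exon 5 of 5, and they hold 20 of the 86 variable positions. That is 22.2% of the stretch, against 5.74% of the rest of the coding sequence. The 90 bases were chosen by their differences alone and overlap the reactive-centre loop, whose borders were not mapped here. The stretch lies on the minus strand of chromosome 12 in mm10, for Serpina1a at chr12:103853723-103853812, for Serpina1b at chr12:103728290-103728379, for Serpina1c at chr12:103895060-103895149, for Serpina1d at chr12:103763728-103763817 and for Serpina1e at chr12:103947066-103947155. It is printed 5' to 3' from the GENCODE M21 transcripts, with capitals at the positions where the 5 copies are not all alike.
Serpina1a: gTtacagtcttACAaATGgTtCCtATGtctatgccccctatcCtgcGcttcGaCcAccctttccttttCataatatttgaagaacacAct
Serpina1b: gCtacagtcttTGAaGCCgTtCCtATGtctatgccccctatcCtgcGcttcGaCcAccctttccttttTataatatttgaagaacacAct
Serpina1c: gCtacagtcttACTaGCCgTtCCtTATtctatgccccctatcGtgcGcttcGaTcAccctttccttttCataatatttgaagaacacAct
Serpina1d: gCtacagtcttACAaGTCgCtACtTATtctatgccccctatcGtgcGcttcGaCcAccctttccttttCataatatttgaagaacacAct
Serpina1e: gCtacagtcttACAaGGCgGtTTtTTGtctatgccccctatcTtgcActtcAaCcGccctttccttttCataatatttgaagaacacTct

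Identity between pairs of Serpina1 coding sequences ran from 96.3% to 98.5%, and the closest pair was Serpina1a and Serpina1c. The pair that shares a row, Serpina1a and Serpina1d, was 96.6% identical. Of all 50-base stretches of the principal transcript, 19.1% in Serpina1a and 25.8% in Serpina1c occurred in no other gene of GENCODE M21. That share was 49.1% for Serpina1d, 52.9% for Serpina1b and 62.1% for Serpina1e. Short reads from most of Serpina1a therefore also match Serpina1c, which held 69.3% of the Serpina1a stretches. Serpina3k was 92% identical to Serpina3m in aligned coding bases, and 86% of its 50-base stretches occurred in no other gene. For Serpina6, Serpinc1 and Serpinf2 the share was 100%, and for Serpina10 it was 98.1%. Values of single Serpina1 rows are thus uncertain in how reads were divided among them, whereas their sum does not depend on that division.

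**Figure D1:**
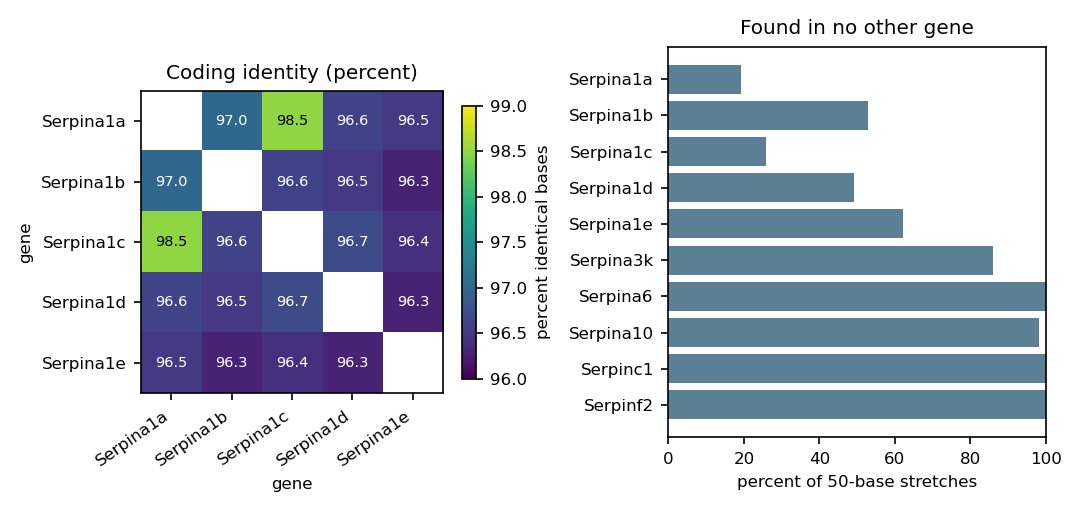
Left, percent identical bases between the coding sequences of the 5 Serpina1 copies. Right, percent of the 50-base stretches of each member's principal transcript that occur in no other gene of GENCODE M21. Serpina1a and Serpina1c form the closest pair, at 98.5%, and have the smallest shares of distinct stretches.

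Promoters are shown because the Serpina1 copies share a start region. RefSeq promoters on GRCm38 (250 bases before to 50 after each annotated start) matched 7 of the 10 members, all but Serpina3k, Serpina6 and Serpina10. The HNF1 half-site GTTAAT, searched on both strands, occurred in all 5 Serpina1 promoters and in neither that of Serpinc1 nor that of Serpinf2, and 7.1% of all 32851 promoters of the same length held it. HNF1 is a homeodomain factor of hepatocyte genes. The half-site CAAAGTCC of the nuclear receptor HNF4 occurred in 0 of the 7 promoters and in 1.42% of all promoters. A match is a description of these letters and was not tested as a binding site. The stretches below show what the copies share, with the GTTAAT in capitals. They lie on the minus strand of chromosome 12, at chr12:103863575-103863700 for Serpina1a, chr12:103738150-103738275 for Serpina1b, chr12:103904912-103905037 for Serpina1c, chr12:103773584-103773709 for Serpina1d and chr12:103956910-103957035 for Serpina1e. Against Serpina1a, the 126 bases differ at 5 positions in Serpina1b, 7 in Serpina1c, 10 in Serpina1d and 4 in Serpina1e. The motif begins at -21, -26, -27, -16 and -78 from the annotated start, in the order printed.
Serpina1a: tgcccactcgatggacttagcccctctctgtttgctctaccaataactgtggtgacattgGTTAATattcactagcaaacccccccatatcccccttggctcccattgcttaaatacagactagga
Serpina1b: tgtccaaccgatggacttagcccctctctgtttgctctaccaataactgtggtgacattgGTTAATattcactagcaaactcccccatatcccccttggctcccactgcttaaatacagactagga
Serpina1c: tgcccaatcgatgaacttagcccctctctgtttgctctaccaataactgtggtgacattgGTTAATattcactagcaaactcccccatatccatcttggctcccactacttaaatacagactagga
Serpina1d: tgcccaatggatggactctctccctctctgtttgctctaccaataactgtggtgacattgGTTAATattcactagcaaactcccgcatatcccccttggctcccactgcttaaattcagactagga
Serpina1e: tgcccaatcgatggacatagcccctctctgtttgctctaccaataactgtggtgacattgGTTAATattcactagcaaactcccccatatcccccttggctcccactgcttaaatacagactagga

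Values are normalized reads, that is, the reads of a row divided by 1 size factor per library as deposited by the authors. The reads recovered from them summed to between 838637 and 933319 in WT and between 631020 and 702013 in HSKO, of which the single row BC071253 took 43.1% to 57.8%. In the WT libraries Abca1 was at 15.3, 23.7 and 19.2, from 20, 36 and 34 reads. In the HSKO libraries it was at 2.92, 1.45 and 2.66, from 2, 1 and 2 reads. Every HSKO library was thus below every WT library, although the HSKO values rest on very few reads. The mean fell from 19.4 ± 4.22 to 2.35 ± 0.783 (SD, n = 3), with a log2 fold change of -2.62 (limma adjusted p = 0.000862). Pooled over libraries and corrected for size factors, WT reads were 8.31 times HSKO reads (exact 95% interval 3.43 to 26.2, counting error only). The size of the fall is therefore known only roughly. Markers of hepatocytes were present in every library, and the neutrophil markers S100a8, S100a9, Elane, Mpo, Ngp and Retnlg had 0 reads in all 6, which allows up to 3 reads of each per library.

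In HSKO livers, 5 of the 9 serpin rows fell, those of Serpina10, Serpina6, Serpinc1, Serpina1c and of Serpina1a with Serpina1d. Falls ranged from 3.5-fold for Serpina10 to 1.58-fold for Serpina1c. The rows of Serpina1b, Serpina1e, Serpina3k with Serpina3m and Serpinf2 passed in neither direction. None of the 9 was called higher by limma, and none had a higher level at an unadjusted p below 0.05, while edgeR and DESeq2 also called 0 higher. Limma (2-sided, Benjamini-Hochberg adjustment over all 2750 rows with a mean of at least 10, threshold 0.05) called 40.1% of all rows, 11.6% lower and 28.5% higher. All 9 serpin log2 fold changes were below 0, with a median of -0.65 against 0.07 over all rows tested. In 7 of the 9 rows every HSKO value lay below every WT value, which held for 20.1% of all rows tested, and the opposite order held for 31.4%.

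**Figure D2:**
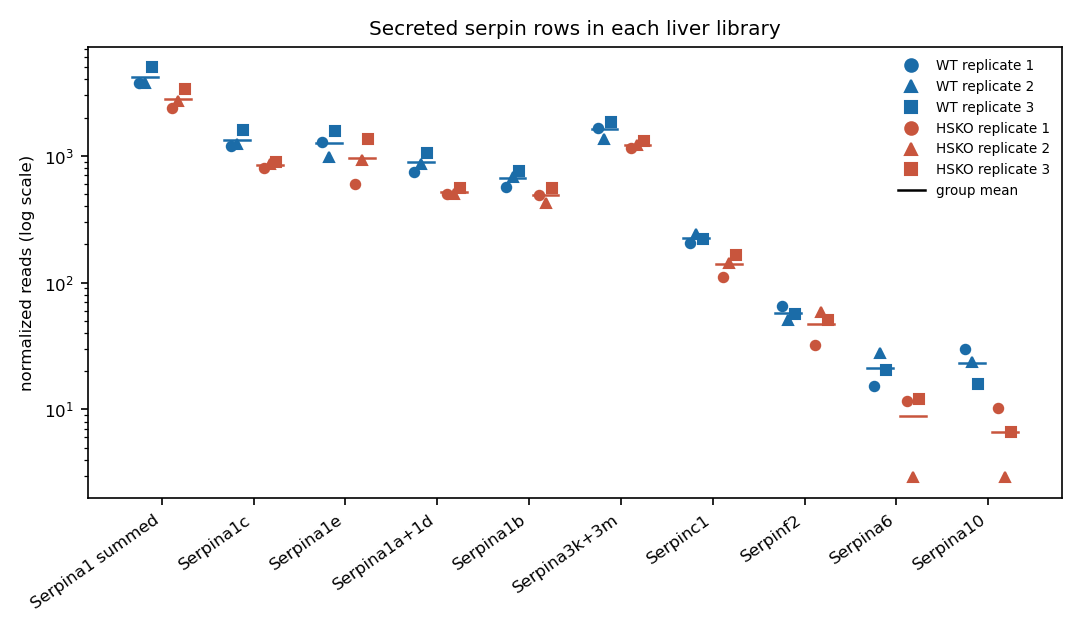
Normalized reads (log axis) of the 9 serpin rows and of the Serpina1 rows summed, in 3 WT and 3 HSKO libraries; each point is a library and each bar the group mean. HSKO points lie below all WT points except in Serpina1e and Serpinf2, and the lowest points of Serpina6 and Serpina10 are HSKO replicate 2.

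The size of these falls depended on how libraries were scaled. With upper quartile scaling 8 of the 9 rows were lower, as with quantile normalization and with edgeR and TMM, and with total reads 9 of 9, also when BC071253 was left out. Libraries were also scaled to the summed reads of 14 hepatocyte markers, among them Alb and Ttr and no serpin. Abundant markers, Alb above all, weigh most in that sum. With this scaling limma called 0 of the 9 rows lower (1 at an unadjusted p below 0.05). The markers themselves summed to 12995.6, 15718.1 and 15916.6 in the WT libraries and to 7980.4, 9130.3 and 11765.1 in the HSKO libraries, without overlap. Of the 14 markers, 7 were called lower and 7 neither under the deposited scaling, beside 11.6% of all rows lower and 28.5% higher. The median log2 fold change of the 14 was -0.65, equal to that of the serpins at this precision. The markers did not fall alike, with Fabp1 at -1.27 and Apoa1, Hnf4a and Ass1 at -0.04, -0.06 and 0.02. Albumin, Alb, averaged 6425.6 ± 1746.3 across WT libraries and 3931.8 ± 1204.7 across HSKO libraries (adjusted p = 0.0525), and transthyretin, Ttr, fell from 653.6 ± 33.2 to 432.6 ± 69.7 (adjusted p = 0.0384). In bulk liver, fewer hepatocytes, less serpin RNA per hepatocyte and the scaling between libraries cannot be told apart.

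The median log2 fold change of all rows tested shifted by -0.09, -0.28, -0.20, 0.60, -0.64 and -0.47 under quantile normalization, upper quartile scaling, TMM, hepatocyte markers, total reads and total reads without BC071253. The split of higher against lower calls over all rows was 783 to 320 as deposited and 595 to 502, 580 to 703, 684 to 601, 1146 to 17, 221 to 1044 and 429 to 913 in that order.

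**Figure D3:**
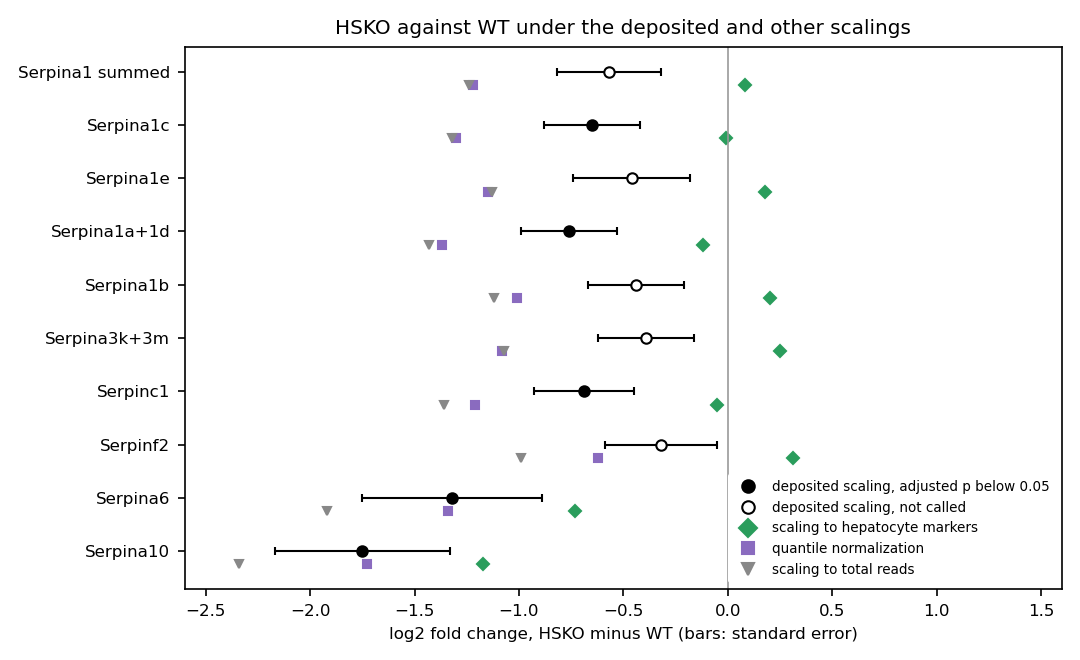
Log2 fold change of each serpin row, HSKO minus WT, with its standard error under the deposited scaling (filled where the adjusted p is below 0.05, open where not), and under 3 other scalings (coloured points). Scaling to hepatocyte markers puts 4 of the 9 rows and the Serpina1 sum above 0 and leaves Serpina10 at -1.17.

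Serpina10, the protein Z-dependent protease inhibitor, which acts on factor Xa, had the largest fall of the 9 rows under the deposited scaling. It lies on the minus strand of chromosome 12 from 103614786 to 103631444 in mm10, at one end of the Serpina cluster. Its level was 29.8, 23.7 and 15.8 in the WT libraries, from 39, 36 and 28 reads, and 10.2, 2.91 and 6.65 in the HSKO libraries, from 7, 2 and 5 reads. The highest HSKO library thus lay below the lowest WT library, although the HSKO values rest on few reads. The mean fell from 23.1 ± 7.01 to 6.6 ± 3.66 (SD, n = 3), a log2 fold change of -1.75 with a standard error of 0.42 (adjusted p = 0.00312). Pooled over libraries and corrected for size factors, WT reads were 3.39 times HSKO reads (exact 95% interval 1.93 to 6.43, counting error only). The row stayed below the threshold with each library left out (adjusted p 0.00487 to 0.0214) and in 6 of 7 scalings, and with hepatocyte markers its adjusted p was 0.0522.

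Serpina6, corticosteroid-binding globulin, carries glucocorticoids in plasma and is not known as a protease inhibitor. It is the neighbour of Serpina10 on the same strand, from 103646630 to 103657212. Values were 15.3, 27.6 and 20.3 in WT, from 20, 42 and 36 reads, and 11.7, 2.91 and 12 in HSKO, from 8, 2 and 9 reads. Groups did not overlap, and HSKO replicate 2 was the lowest library for Serpina6 as for Serpina10. The mean fell from 21.1 ± 6.22 to 8.86 ± 5.15 (SD, n = 3), a log2 fold change of -1.32 with a standard error of 0.43 (adjusted p = 0.0214). The call was lost without HSKO replicate 2 (log2 fold change -0.74, adjusted p = 0.105), without WT replicate 2 (0.116) and without WT replicate 3 (0.0679), and in DESeq2 (0.0613).

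Serpinc1, antithrombin, the main plasma inhibitor of thrombin and factor Xa in the presence of heparin, lies on chromosome 1 from 160978585 to 161005863. Its level was 205.3, 243.5 and 219.4 in the WT libraries and 111.1, 142.5 and 164.9 in the HSKO libraries. The WT libraries were close together, and all HSKO libraries were below them. The mean fell from 222.7 ± 19.3 to 139.5 ± 27 (SD, n = 3), a log2 fold change of -0.69 with a standard error of 0.24 (adjusted p = 0.0264), with WT reads 1.59 times HSKO reads (exact 95% interval 1.4 to 1.82). Leaving out WT replicate 2 (adjusted p = 0.119) or either of HSKO replicates 1 and 2 (0.123 and 0.073) ended the call.

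Serpinf2, alpha-2-antiplasmin, the rapid plasma inhibitor of plasmin, lies on the minus strand of chromosome 11 from 75431732 to 75439591. It was at 65.6, 50.7 and 56.4 in WT and at 32.2, 58.2 and 50.5 in HSKO. HSKO replicate 1 was low and the other HSKO libraries lay within or near the WT range. Means were 57.6 ± 7.55 and 47 ± 13.4 (SD, n = 3), a log2 fold change of -0.32 with a standard error of 0.27 (adjusted p = 0.348), and the exact 95% interval of the read ratio was 0.96 to 1.54 (counting error only). Without HSKO replicate 1 the log2 fold change of Serpinf2 was -0.08 (adjusted p = 0.844), and with total reads it was -0.99 (adjusted p = 0.00821).

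Serpina1 encodes alpha-1-antitrypsin, the main plasma inhibitor of neutrophil elastase. The 5 copies lie on the minus strand of chromosome 12 between 103728156 and 103958975, where the annotated span of Serpina1b (to 103830373) encloses Serpina1d. The row of Serpina1a with Serpina1d was at 741.8, 861.4 and 1054.7 in WT and at 499.9, 495.8 and 561.2 in HSKO. All HSKO libraries were lower and closer to each other than the WT libraries. The mean fell from 886.0 ± 157.9 to 519.0 ± 36.6 (SD, n = 3), a log2 fold change of -0.76 with a standard error of 0.23 (adjusted p = 0.0132). Leaving out HSKO replicate 1 or 2 ended this call (adjusted p = 0.0509 and 0.0693).

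Serpina1c was at 1189.0, 1239.8 and 1602.3 in the WT libraries and at 808.3, 856.5 and 887.0 in the HSKO libraries. The groups were again separate, with WT replicate 3 highest. The mean fell from 1343.7 ± 225.4 to 850.6 ± 39.7 (SD, n = 3), a log2 fold change of -0.65 with a standard error of 0.23 (adjusted p = 0.0295). The call held in 1 of the 6 fits that leave out a library, that without WT replicate 1 (adjusted p = 0.0186), and was between 0.0531 and 0.101 in the other fits. With the replicate number as a block its adjusted p was 0.0516.

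Serpina1b was at 564.7, 674.5 and 760.8 in WT and at 489.6, 426.1 and 555.9 in HSKO. HSKO replicate 3 and WT replicate 1 were within a few percent of each other, and the groups just failed to overlap (log2 fold change -0.44, SE 0.23, adjusted p = 0.13). Serpina1e was the most variable copy, at 1276.0, 979.2 and 1554.9 in WT and at 603.6, 919.0 and 1348.5 in HSKO. Its highest HSKO library exceeded 2 of the WT libraries, and within HSKO the highest value was 2.23 times the lowest, against 1.1 times in Serpina1c. Means of Serpina1e were 1270.0 ± 287.9 and 957.0 ± 373.9 (SD, n = 3), a log2 fold change of -0.46 with a standard error of 0.28 (adjusted p = 0.193). That value was -0.16 without HSKO replicate 1 and -0.74 without HSKO replicate 3 (adjusted p = 0.692 and 0.0513), and -0.30 without WT replicate 3.

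Summed over the 4 rows, Serpina1 was at 3771.5, 3755.0 and 4972.8 in WT and at 2401.4, 2697.4 and 3352.5 in HSKO. Every HSKO library was lower than every WT library, yet the sum did not pass the test in a fit where it replaced its rows (log2 fold change -0.57, SE 0.25, adjusted p = 0.072). WT reads of the sum were 1.49 times HSKO reads (exact 95% interval 1.45 to 1.54, counting error only). Calls on single copies above are therefore not calls on total alpha-1-antitrypsin mRNA. DESeq2 called the sum lower (adjusted p = 0.0376), as did 5 of 7 scalings, and with hepatocyte markers its log2 fold change was 0.08 (adjusted p = 0.876).

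The division of Serpina1 reads among the rows does not depend on the scaling between libraries, and the groups overlapped on every row. Serpina1e took 33.8%, 26.1% and 31.3% of the sum in WT and 25.1%, 34.1% and 40.2% in HSKO. Exact 95% intervals of HSKO replicate 1 (23.1% to 27.3%) and HSKO replicate 3 (38.3% to 42.2%) were far apart, so counting error does not cover that spread. The intervals leave out the uncertainty in how reads were divided among the copies. Serpina1c took 31.5%, 33% and 32.2% in WT and 33.7%, 31.8% and 26.5% in HSKO. The shares of Serpina1a with Serpina1d averaged 21.3% ± 1.64 in WT and 18.6% ± 2.05 in HSKO, and those of Serpina1b 16.1% ± 1.64 and 17.6% ± 2.46 (SD, n = 3). Exact 2-sided permutation p-values were 0.2 for Serpina1a with Serpina1d, 0.5 for Serpina1b, 0.8 for Serpina1c and 0.6 for Serpina1e, 0.8 for each after adjustment over the 4, where 3 against 3 cannot go below 0.1.

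**Figure D4:**
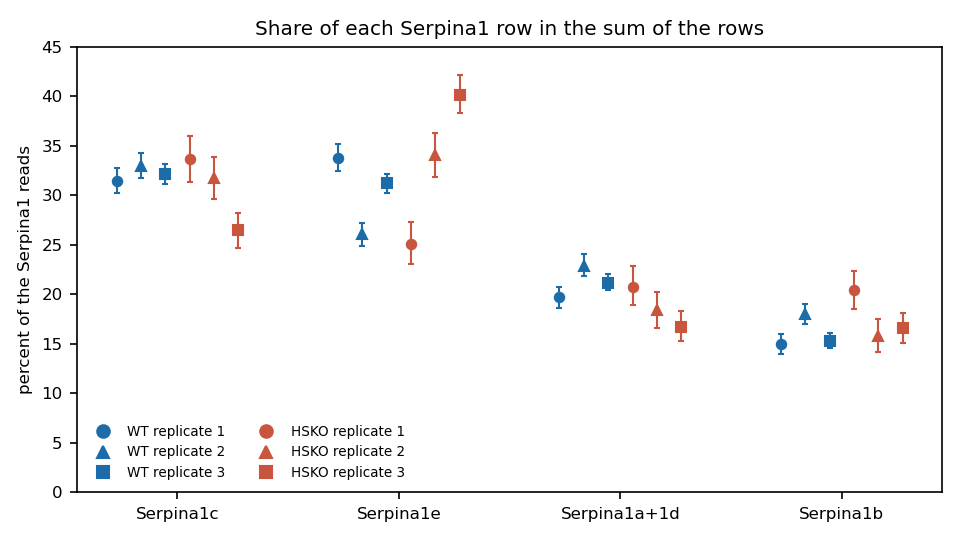
Percent of the Serpina1 reads on each of the 4 rows in each library, with exact 95% binomial intervals that cover counting error only. Serpina1e ranges from 25.1% in HSKO replicate 1 to 40.2% in HSKO replicate 3, and the groups overlap on every row.

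Serpina3k encodes a kallikrein-binding protein of the mouse, on the plus strand of chromosome 12 from 104338486 to 104346144, and its row also names the copy Serpina3m. The annotated span of Serpina3m (to 104394257) has the same start and encloses Serpina3k. The row was at 1648.4, 1347.7 and 1855.6 in WT and at 1153.2, 1217.1 and 1300.6 in HSKO. All HSKO libraries lay below the lowest WT library, by little for HSKO replicate 3. Means were 1617.2 ± 255.3 and 1223.6 ± 73.9 (SD, n = 3), a log2 fold change of -0.39 with a standard error of 0.23 (adjusted p = 0.176), so the row did not pass. It was called lower in 5 of 7 scalings, and its log2 fold change was 0.25 with hepatocyte markers.

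Levels can be compared between genes only per length. Per kilobase of principal transcript, the mean level in WT was 987.3 ± 165.6 for Serpina1c, 980.7 ± 222.3 for Serpina1e, 870.6 ± 137.5 for the row of Serpina3k and Serpina3m, 643.4 ± 114.7 for that of Serpina1a and Serpina1d and 478.3 ± 70.5 for Serpina1b (SD, n = 3). Serpinc1, Serpinf2, Serpina6 and Serpina10 followed at 44.8 ± 3.89, 26.4 ± 3.46, 13.1 ± 3.88 and 6.6 ± 2. The first 3 rows did not differ beyond their spread, and the 2 shared rows hold the transcripts of 2 genes each. Per kilobase of coding sequence, the row of Serpina3k and Serpina3m led at 1289.7 ± 203.6 and Serpina6 and Serpina10 were level, at 17.7 ± 5.23 and 17.2 ± 5.21, since Serpina10 has a long transcript outside its coding part.

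**Figure D5:**
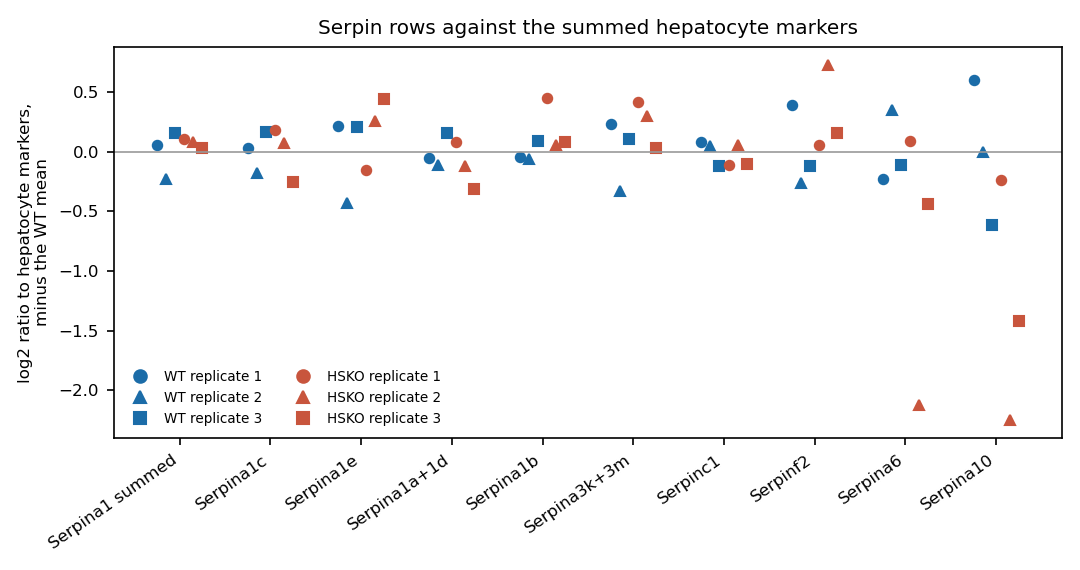
Log2 ratio of each serpin row to the summed 14 hepatocyte markers in each library, less the WT mean of that row. The Serpina1 sum lies near 0 in all 6 libraries, and Serpina6 and Serpina10 in HSKO replicate 2 and Serpina10 in HSKO replicate 3 are the lowest points.

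Set against the hepatocyte markers within each library, all serpin rows overlapped between the groups. The log2 ratio of the Serpina1 sum to the markers was -1.84 ± 0.20 in WT and -1.77 ± 0.04 in HSKO, and that of Serpinc1 was -6.06 ± 0.11 and -6.11 ± 0.09 (SD, n = 3). Serpina10 was at -9.37 ± 0.60 and -10.67 ± 1.01, a difference of -1.30 with overlapping groups (exact 2-sided permutation p = 0.2, 0.667 adjusted over 10 ratios). Serpina6 differed by -0.82 (exact permutation p = 0.3, adjusted 0.667). Against the Serpina1 sum, Serpina10 was lower by a log2 difference of -1.37 (exact permutation p = 0.2, adjusted 0.5 over 5 ratios), with overlapping groups.

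The members from Serpina10 to Serpina3k lie in a cluster of Serpina genes that spans 799.5 kb of chromosome 12, from 103614786 to 104414329. Of its 21 rows in the table, 9 had 0 reads in every library and 8 passed the filter, 4 of which were lower, beside 11.6% of all rows tested. Serpina3n, an acute phase serpin beside Serpina3m, was the only tested row of the cluster outside the members. It was at 78.6, 41.5 and 39.5 in WT and at 42.4, 36.4 and 46.5 in HSKO, with WT replicate 1 high and the groups overlapping (adjusted p = 0.447).

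Among all other rows that name a Serpin symbol, 51 in number, 34 had 0 reads in every library, 13 had some reads below the filter and 4 were tested. Serpind1, heparin cofactor II, fell from 50.7 ± 10.9 to 30.6 ± 5.31 (adjusted p = 0.0446), and Serping1, the C1 inhibitor, from 76.3 ± 12.6 to 44.6 ± 9.76 (adjusted p = 0.024). Serpinf1, a non-inhibitory serpin known as pigment epithelium-derived factor and the neighbour of Serpinf2, fell from 59.4 ± 7.27 to 35.1 ± 10.2 (SD, n = 3, adjusted p = 0.0295). With Serpina3n, 3 of 4 were thus lower, beside the 11.6% of all rows.

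Proteases that plasma serpins act on were measured in the same libraries. Of 19 listed, 12 passed the filter, of which 5 were lower, 1 higher and 6 neither, beside 11.6% of all rows lower and 28.5% higher. Klkb1, plasma prekallikrein, fell from 31.5 ± 4.03 to 11.1 ± 4.41 (log2 fold change -1.48, adjusted p = 0.00154) and F9, coagulation factor IX, from 33.7 ± 6.71 to 14.5 ± 3.81 (adjusted p = 0.00439). Plg, plasminogen, the zymogen of the target of Serpinf2, fell from 445.6 ± 30.4 to 249.3 ± 21.2 (adjusted p = 0.00584), and C1ra, a complement protease with a close copy, from 74.6 ± 3.76 to 38.3 ± 10.7 (SD, n = 3, adjusted p = 0.00632). F2, prothrombin, was the other lower member. Masp2, a protease of the lectin pathway of complement, was the higher one (log2 fold change 0.75, adjusted p = 0.0203), a call lost with upper quartile scaling, with quantile normalization, in edgeR with TMM and with total reads, with or without BC071253. The elastase gene Elane, with Ctsg, Prtn3, Plau and Klk1, had 0 reads in all libraries. The median of the 12 was -0.58, and with hepatocyte markers it was 0.03, with 1 lower and 2 higher. That scaling called 17 of all 2750 rows lower and 1146 higher.

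Of 21 cofactors and other plasma protease inhibitors, 16 were tested, 5 of them lower and 11 neither (median -0.61), beside 11.6% of all rows lower. Pzp, an alpha-2-macroglobulin relative that entraps proteases, fell from 846.4 ± 117.5 to 492.5 ± 66.7 (adjusted p = 0.0115), and Fetub, a cystatin-family inhibitor, from 65.7 ± 6.35 to 40.9 ± 5.01 (adjusted p = 0.036). Mug1, a murinoglobulin with near-identical copies, and Itih2, an inter-alpha-inhibitor heavy chain, had log2 fold changes of -0.66 and -0.66 (adjusted p = 0.0377 and 0.0397). The fifth was Cpb2. With hepatocyte markers their median was 0.02 and limma called 0 lower (0 at an unadjusted p below 0.05), while edgeR with TMM called 14 lower. Of all 2750 rows, 17 and 601 were lower, in that order.

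Among 14 tested genes of folding, degradation and export of secreted proteins, 2 were lower and 12 neither (median -0.54), a share near the 11.6% of all rows. Pdia4, a disulfide isomerase, fell from 32.1 ± 6.7 to 11 ± 8.42 (adjusted p = 0.0033) and Hspa5, the chaperone BiP, from 90.3 ± 8.8 to 50.5 ± 2.4 (SD, n = 3, adjusted p = 0.0107). Lman1, a cargo receptor that exports alpha-1-antitrypsin from the endoplasmic reticulum, and its partner Mcfd2 had log2 fold changes of -0.64 and -0.62. Both did not pass (adjusted p = 0.074 and 0.084). The count of lower genes was 8 with upper quartile scaling, 6 with quantile normalization, 7 in edgeR with TMM and 9 with total reads. Of all 2750 rows, 703, 502, 601 and 1044 were lower, in that order. With hepatocyte markers limma called 0 lower (1 at an unadjusted p below 0.05) and 2 higher, and the median was 0.07. That scaling called 17 of all rows lower and 1146 higher.

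Of 9 tested acute phase genes, Serpina3n among them, 5 were lower and 4 neither (median -0.73), beside 11.6% of all rows lower. WT replicate 1 stood apart in this list. The serum amyloid gene Saa1 was at 232.0 in it and at 15.8 and 7.33 in the other WT libraries, and Saa2 at 190.0 against 9.21 and 2.82. Haptoglobin, Hp, was at 589.9 against 261.9 and 276.9, and Orm1, an acid glycoprotein, at 168.7 against 91.5 and 95.3. Orm1 fell from 118.5 ± 43.5 to 56.7 ± 10.8 (adjusted p = 0.00696), and Crp, Fgg and Fga had log2 fold changes of -1.23, -0.73 and -0.66. Without WT replicate 1, 3 of the 9 were lower and the median was -0.41, with Orm1 at -0.73 (adjusted p = 0.0355) and Hp at -0.41 (adjusted p = 0.188). In that fit Saa1, Saa2 and Serpina3n turned above 0, at 0.56, 1.30 and 0.04, and did not pass (adjusted p = 0.349, 0.0526 and 0.924). With hepatocyte markers the median was -0.09 and limma called 0 of the 9 lower (0 at an unadjusted p below 0.05), while edgeR with TMM called 8. Of all 2750 rows, 17 and 601 were lower, in that order.

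Transcription factors and receptors known to act on liver serpin genes were also measured. Of 8 tested, 3 were higher, 1 lower and 4 neither, with a median of 0.06, beside 28.5% of all rows higher and 11.6% lower. Cebpb, a C/EBP factor, rose from 57.6 ± 8.7 to 134.1 ± 30.6 (log2 fold change 1.19, adjusted p = 0.00142), and the pioneer factor Foxa1 rose from 15.2 ± 1.08 to 35.6 ± 13.5 (adjusted p = 0.00939). Il6ra, the interleukin 6 receptor, rose from 9.25 ± 3.27 to 20.5 ± 8.24 with overlapping groups (adjusted p = 0.0363). The row of Onecut1, which also names Gm16551, fell from 20.3 ± 6.49 to 9.42 ± 0.711 (SD, n = 3, adjusted p = 0.0254). Its HSKO values rest on 6, 7 and 7 reads. With total reads 4 were lower, limma called 0 higher (0 at an unadjusted p below 0.05) and the median was -0.59, so that the calls on Cebpb, Foxa1 and Il6ra were lost. Without BC071253 in the total, 2 were lower and 1 higher. With hepatocyte markers 3 were higher and the median was 0.67. Limma then called 0 lower (0 at an unadjusted p below 0.05), so that the call on Onecut1 was lost. Over all rows, lower against higher calls were 1044 to 221, 913 to 429 and 17 to 1146 in these 3 scalings.

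Markers of other liver cells were sparse beside the serpins. Summed values of 6 stellate cell and fibroblast markers were 29.8 to 36.9 in WT and 10.2 to 21.8 in HSKO, without overlap, with Dcn the tested marker and lower (adjusted p = 0.00626). The 5 sinusoidal endothelial markers, none of which passed the filter, summed to 23.7 to 25.2 in WT and 4.36 to 23.4 in HSKO. The nearest WT and HSKO libraries lay closer than the value of 1 read, which was at least 0.564, so the groups were hardly apart. Macrophage markers (6 rows) overlapped, at 31.3 to 67.8 and 21.9 to 53.2. Of the 2 tested, Cd5l was lower (log2 fold change -1.18, adjusted p = 0.0442) and Marco was at 1.01 without passing. Cholangiocyte markers (5 rows) overlapped too, at 10.7 to 15.8 and 5.32 to 17.5, with Krt7 and Krt19 at 0 reads throughout. Lymphocyte markers (5 rows, Cd3e and Nkg7 at 0 reads) and erythroid markers (3 rows) summed to at most 3.99 and 11.8 in any library. Their part in the serpin results was not tested.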

How the data were processed

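Liver RNA was sequenced in 6 stranded, paired-end mRNA libraries, per the labels' protocols. The deposited table gives a signal per gene row and library, gene reads divided by a size factor. Tools listed, without roles, in the submitters' processing notes are RSEM 1.2.9, Bowtie, DESeq 1.16.0 and FastQC 0.11.3, with the build mm10. No source used here gives the annotation, filters or strand setting, so overlapping and antisense genes cannot be told apart. Dividing by the value of 1 read gave whole reads for 100% of values (tolerance 0.001).

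Rows with a mean of at least 10 (2750 of 29981) were log2-transformed after adding a pseudocount of 1, which shrinks fold changes of low genes, and tested with limma 3.58.1 (R 4.3.3) with a mean-variance trend, which called 1103. On the recovered reads, edgeR 4.0.16 with TMM called 1285 and DESeq2 1.42.0 called 869. Adjusted p-values are limma's unless named. The procedure was tested on simulated data. The members and gene lists were chosen with earlier results of these data known. Named genes were all members, other tested Serpin rows, up to 4 called members per list with the smallest p, Abca1, Alb, Ttr and the 5 rows most alike; others complete a count or were chosen after their values were seen. Positions and transcripts are from GENCODE M21 (mm10), searched for identity with Biopython 1.88. Intervals are exact (Clopper-Pearson) and cover counting error only. Between libraries of a group, chi-square per degree of freedom was 2.12 for HSKO replicates 1 and 2 and 5.85 to 8.68 for the other pairs. No pair was taken as the same library deposited again, so each counted once. Whether libraries came from the same animal cannot be read from these values. Alternatives were other pseudocounts (0.5 and 10), filters, scalings, variance settings, a replicate block, edgeR, DESeq2 and each library left out.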

Additional observations from a re-analysis of the deposited data

How the results depend on the processing

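The 5 serpin rows called lower became 1 with no filter, 3 with a minimum mean of 50 (7 rows tested), 8 with upper quartile scaling, quantile normalization or edgeR with TMM, 9 with total reads, with or without BC071253, 3 with no trend and 0 with hepatocyte markers. Leaving out 1 library gave 1 to 5, the lowest without HSKO replicate 2, with 2 without HSKO replicate 1 or WT replicate 2 and 3 without WT replicate 3. Rows lower in all 7 scalings, a count made after seeing the data, numbered 0. Over all rows, 1103 calls became 509 with a minimum mean of 50, where fewer rows were tested, and 738 to 1135 with a library left out.

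The Serpina1 sum (-0.57) was called at -0.57 with a minimum mean of 50, -0.87 with upper quartile scaling, -1.24 with total reads, -1.06 with total reads without BC071253, -1.22 with quantile normalization, -0.50 with array weights, -0.56 in DESeq2 and -0.80 in edgeR. It was at -0.70 to -0.43 with a library left out. With hepatocyte markers the log2 fold change turned to 0.08 for the sum, 0.20 for Serpina1b, 0.18 for Serpina1e, 0.25 for Serpina3k with Serpina3m and 0.31 for Serpinf2. With a library left out, the difference in share ran from -3.15 to 0.45 percentage points for Serpina1c and from -0.79 to 6.75 for Serpina1e, and turned sign without HSKO replicate 3 in both. The causes were not tested.

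The replicate numbers pair the samples neither in the labels nor in the data, where same-numbered libraries' deviations correlated between -0.0275 and -0.0209. With the replicate number as a block, 4 serpin rows were lower and 1020 rows were called. Depth limits Serpina6 and Serpina10, at 2 to 9 reads per HSKO library. Other named calls also rest on few HSKO reads, among them Klkb1 (5, 7 and 12), Pdia4 (6, 14 and 3) and Dcn (3, 7 and 5). Cd5l had 3, 3 and 8 reads, Crp 4, 9 and 15, F9 7, 12 and 12 and the Onecut1 row 6, 7 and 7. The HSKO reads of Abca1 were 2, 1 and 2.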

Other observations

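Outside the Serpin family, the rows whose log2 values over the 6 libraries were most like the mean standardised value of the 9 serpin rows were Cp, Ttr, Klkb1, Acat1 and Ctsb, with Pearson r of 0.998, 0.991, 0.986, 0.983 and 0.982. Over the 2737 rows compared, 5.22% had an r above 0.9. All points share library and scaling, so these values are descriptions. Cp, the copper-carrying plasma ferroxidase ceruloplasmin, fell from 192.3 ± 15.3 to 110.9 ± 19.2 (SD, n = 3, limma adjusted p = 0.011). Acat1, the mitochondrial thiolase, and Ctsb, a lysosomal cysteine protease, had log2 fold changes of -0.28 and -0.54 and did not pass (adjusted p = 0.367 and 0.0994).

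Serpins below the filter gave few reads. Serpina12, an adipokine known as vaspin, had normalized reads of 14.5, 11.8 and 8.46 in WT and 8.77, 8.72 and 2.66 in HSKO, and the groups overlapped. Serpina11 was at 12.2, 2.63 and 5.64 against 5.85, 7.27 and 7.98. Serpina7, the thyroxine-binding globulin, was at 1.53, 8.55 and 2.82 in WT and 0, 1.45 and 2.66 in HSKO.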
